A study of Mus musculus with 24 samples.

Results

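Macrophages grown from mouse bone marrow were compared after loss of either of the kinases TBK1 and IKKe, without any stimulus. The comparison uses 6 of the 24 RNA-seq libraries of the series, chosen by their genotype and treatment labels: 3 labelled TBK1-cKD ∆control and 3 labelled TBK1-WT ∆IKKe, all untreated. The series record gives TBK1-cKD as a conditional knockout of TBK1 that keeps IKKe, and TBK1-WT ∆IKKe as an IKKe knockout that keeps TBK1. Another untreated group, TBK1-WT ∆control, also of 3 libraries, has neither loss and served as the common reference point, and the same 2 genotypes after 8 h of R837 (imiquimod, a ligand of Toll-like receptor 7) were used to ask whether the differences held after stimulation. The sources do not state the TBK1 allele, how its deletion was driven or the age of the animals. Genotype rests on the titles and genotype labels, because the protocol of every library, knockouts included, speaks of wild-type C57BL/6N animals. Cells were differentiated in M-CSF, the growth factor that drives bone marrow progenitors to macrophages, and each library of a group came from a different mouse according to the labels' protocols.

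TBK1 and IKKe (gene symbol Ikbke) are kinases related to the canonical IkB kinases. Downstream of sensors of nucleic acids, such as RIG-I and cGAS-STING, they phosphorylate the transcription factors IRF3 and IRF7, which switch on type I interferon genes. Secreted interferon then signals through JAK kinases to transcription factors, STAT2 and IRF9 among them, that act on the interferon-stimulated response element in the promoters of interferon-stimulated genes, and macrophages keep a low tonic output of these genes without infection. TBK1 is also known to restrain cell death signalling through RIPK1.

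The 6 libraries held between 20314401 and 40341148 counts, the lowest being TBK1-WT ∆IKKe replicate 2, and log2 levels correlated more closely within the groups (Pearson's r between 0.9941 and 0.9950) than between them (0.9887 to 0.9916), as a description across genes. Levels are given below as CPM, the counts of a gene relative to the TMM-scaled depth of its library. The macrophage genes Adgre1, the F4/80 antigen, and Cd68, a lysosomal glycoprotein, were abundant in all 6 libraries. Adgre1 was at 2360, 2300 and 2420 CPM in TBK1-cKD ∆control and at 2430, 2470 and 2620 CPM in TBK1-WT ∆IKKe. For Cd68 the levels were 2330, 2380 and 2570 CPM in TBK1-cKD ∆control and 2260, 2390 and 2460 CPM in TBK1-WT ∆IKKe, and neither gene passed the test. The summed level of 28 genes of glycolysis and HIF1 response was 4110, 6860 and 6580 CPM in TBK1-cKD ∆control, 3510, 5960 and 5960 CPM in TBK1-WT ∆IKKe and 3410, 4240 and 4150 CPM in TBK1-WT ∆control. In the remaining untreated group, labelled TBK1-cKD ∆IKKe, it was 4230, 4560 and 4690 CPM, so the library numbered 1 was the lowest in all 4 untreated groups. Replicates are numbered here in the order of the records, the labels give them no number of their own and do not pair the mice, and the part of a shared batch in the results was not tested.

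The targeted genes differed as their labels say. Tbk1 (chr10:121546455-121586787 on GRCm38) was at 84.8, 82.9 and 81.7 CPM in TBK1-cKD ∆control, at 114, 115 and 113 CPM in TBK1-WT ∆IKKe and at 113, 116 and 112 CPM in TBK1-WT ∆control. The log2 change of TBK1-cKD ∆control over TBK1-WT ∆IKKe was -0.45 ± 0.03 (SE), with an adjusted p of 4.82e-08 in edgeR's quasi-likelihood test with Benjamini-Hochberg adjustment, the test used throughout. Tbk1 transcript therefore remained in the TBK1-cKD libraries, and gene-level counts do not show which exons it held. Ikbke (chr1:131254343-131279606) was at 79.5, 82.6 and 84.8 CPM in TBK1-cKD ∆control, at 39.9, 38.4 and 39.1 CPM in TBK1-WT ∆IKKe and at 65.8, 66.6 and 66.5 CPM in TBK1-WT ∆control, a log2 change of 1.07 ± 0.04 between the losses (adjusted p = 1.53e-11). The Ikbke contrast has a part from each side: Ikbke rose by 0.31 in TBK1-cKD ∆control over TBK1-WT ∆control (adjusted p = 1.55e-05) and fell by 0.76 in TBK1-WT ∆IKKe over the same controls (adjusted p = 1.01e-08). No library of either group overlapped the other for either gene. The untreated libraries labelled TBK1-cKD ∆IKKe, which entered the fit only to estimate the spread, had 89.9, 85.9 and 90.9 CPM of Ikbke. Their transcript level thus does not show the loss that their label names. It does not settle their genotype either, because Ikbke transcript also remained in TBK1-WT ∆IKKe and was higher there after R837. These libraries stood apart in other genes too, with Mmp9 at 1040, 1030 and 1050 CPM against 30.8, 35.5 and 36.9 CPM in TBK1-WT ∆control. The reason was not tested. After R837, Ikbke was at 240, 239 and 248 CPM in TBK1-cKD ∆control and 77, 70.5 and 79.3 CPM in TBK1-WT ∆IKKe. The R837 libraries that entered the fits over 24 libraries only to estimate the spread were uneven for it, at 77.7, 82.7 and 259 CPM in the group labelled TBK1-cKD ∆IKKe and 406, 220 and 233 CPM in TBK1-WT ∆control.

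**Figure D1:**
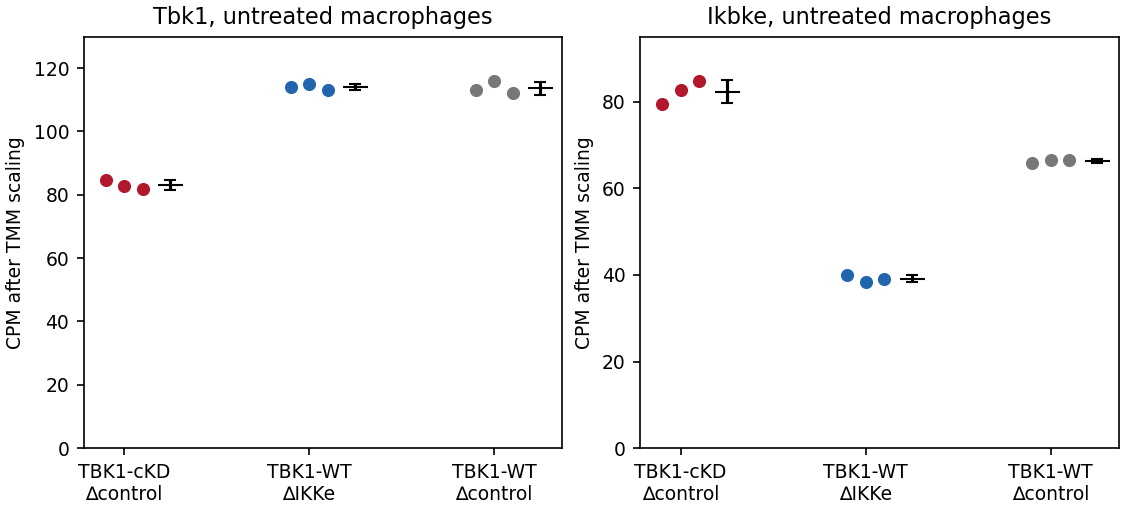
Level of Tbk1 and of Ikbke in each untreated library (y axis, CPM after TMM scaling, starting at 0) for TBK1-cKD ∆control, TBK1-WT ∆IKKe and TBK1-WT ∆control; points are libraries, and the bar beside them is the mean with its SD (n = 3). Tbk1 is lower in the TBK1-cKD ∆control libraries, and Ikbke is highest there and lowest in TBK1-WT ∆IKKe.

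Many transcript levels differed between the groups, mostly by small amounts. Of 14256 genes tested, 2975 (20.9%) had an adjusted p under 0.05, 1466 of them higher (10.3%) and 1509 lower (10.6%) in TBK1-cKD ∆control than in TBK1-WT ∆IKKe. Changes of at least 2-fold ran mostly downward, with 77 genes higher (0.54%) and 184 lower (1.29%). The libraries of the groups did not overlap for 4747 genes (33.3%), of which 2832 also passed the test (19.9% of all tested). Scaling by library size alone moved the split to 1115 higher and 1835 lower, with a median log2 change of all genes of -0.026. With TMM scaling the median was 0.001, which does not check the scaling because TMM centres most genes on no change. A fit over all 24 libraries called 332 genes higher and 474 lower. All 806 were called in the same direction in the untreated fit. Its common coefficient of variation between libraries was estimated at 11.6%, against 4.64% in the 12 untreated libraries. R837 libraries were left out of the main fit. Earlier results of these data had found them divided by a technical level that widens the pooled spread. Calls lost with all 24 libraries were thus judged against that wider spread. Against TBK1-WT ∆control, the untreated fit called 3054 genes (21.4%) in TBK1-cKD ∆control and 11 (0.0772%) in TBK1-WT ∆IKKe.

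**Figure D2:**
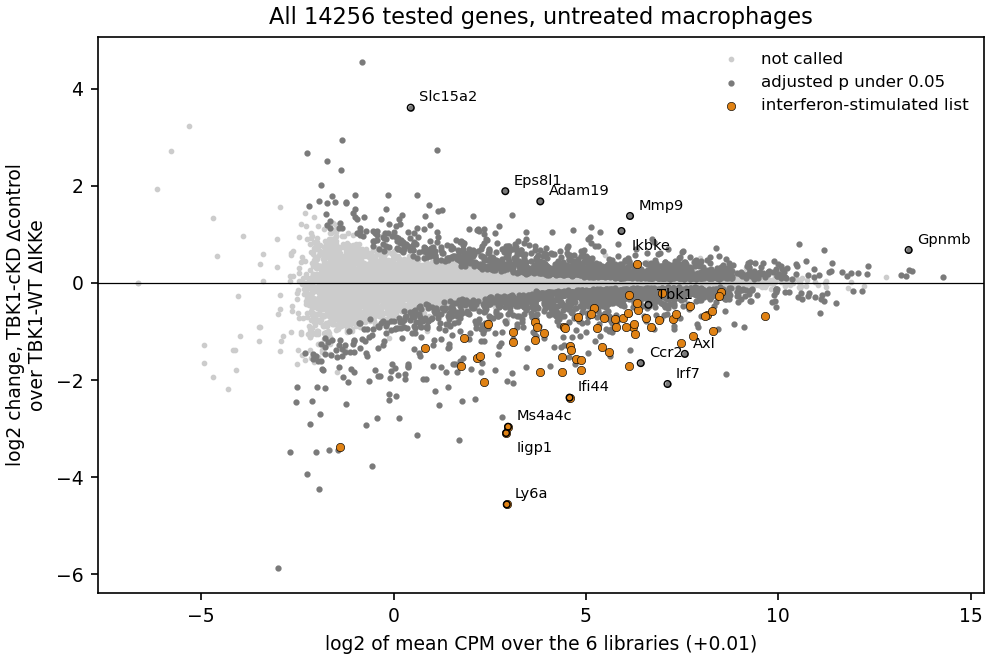
Log2 change of TBK1-cKD ∆control over TBK1-WT ∆IKKe (y axis) against log2 mean CPM over the 6 untreated libraries (x axis) for the 14256 tested genes; dark points passed the test and orange points are the 64 tested genes of the interferon-stimulated list. All but 1 of the orange points lie below 0, and Slc15a2, Mmp9 and Gpnmb are among the labelled genes above it.

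Interferon-stimulated genes were lower in TBK1-cKD ∆control almost throughout. Of a list of 67 such genes 66 are in the files and 64 had enough counts to be tested. All 64 passed the test, 63 of them lower in TBK1-cKD ∆control (against 10.6% of all genes) and 1, Ifi27, higher. Their median log2 change was -0.92, against 0 for all tested genes. The summed level of the list was 4460, 3970 and 4390 CPM in TBK1-cKD ∆control, 6830, 6410 and 7770 CPM in TBK1-WT ∆IKKe and 5490, 5830 and 6230 CPM in TBK1-WT ∆control. Every TBK1-cKD ∆control library was thus below every library of the other groups. The list was drawn up with earlier results of these data known, so its direction is a description.

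Among single members, Ly6a (Sca-1, an interferon-responsive surface protein) fell most, to 0.517, 0.366 and 1.03 CPM in TBK1-cKD ∆control against 13, 13.8 and 17.3 CPM in TBK1-WT ∆IKKe, a log2 change of -4.56 ± 0.26 (adjusted p = 5.15e-09). Iigp1, an immunity-related GTPase that attacks vacuoles of intracellular parasites, was at 1.85, 1.18 and 1.7 CPM in TBK1-cKD ∆control against 12.1, 10.1 and 18.5 CPM in TBK1-WT ∆IKKe (log2 change -3.09 ± 0.21, adjusted p = 3.36e-08). Ms4a4c, a membrane protein of the MS4A family, was at 1.8, 1.38 and 2.23 CPM in TBK1-cKD ∆control against 12.5, 11.6 and 17.6 CPM in TBK1-WT ∆IKKe (log2 change -2.96 ± 0.17, adjusted p = 4.83e-09). For each of these genes the groups were far apart, with the highest TBK1-cKD ∆control library below the lowest TBK1-WT ∆IKKe library. Antiviral effectors and their relatives had smaller changes. Ifi44 fell by 2.36, Mx1, which encodes an antiviral GTPase, by 1.83, Ifit3 by 1.80, Ifit1, which binds viral RNA, by 1.58 and Rsad2, the enzyme viperin, by 1.43 on the log2 scale. Isg15, a ubiquitin-like modifier, was at 14.4, 11.2 and 15.1 CPM in TBK1-cKD ∆control against 32.6, 32.7 and 41.3 CPM in TBK1-WT ∆IKKe (log2 change -1.39 ± 0.12, adjusted p = 4.22e-07). Usp18, the protease that removes ISG15 and damps interferon receptor signalling, fell by 1.30, and Oas3, a sensor enzyme for double-stranded RNA, fell by 1.23 (adjusted p = 2.13e-06 and 5.45e-07).

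Not every member was so even between replicates. Cxcl10, a chemokine for T cells, was at 3.4, 1.51 and 1.74 CPM in TBK1-cKD ∆control and at 6.53, 3.4 and 10.2 CPM in TBK1-WT ∆IKKe, so that the groups nearly met at 3.4 CPM although the test was passed (log2 change -1.54 ± 0.31, adjusted p = 0.00171). In TBK1-WT ∆IKKe, replicate 3 was the highest library for Ifit1 (42.9, 29.1 and 59.5 CPM), Rsad2 (58, 44.3 and 110 CPM) and Iigp1. Ifi27, an interferon-induced membrane protein, ran the other way, at 82.6, 94.6 and 93.7 CPM in TBK1-cKD ∆control and 64.2, 70.6 and 72.3 CPM in TBK1-WT ∆IKKe (log2 change 0.39, adjusted p = 5.92e-05), a call that was lost when all 24 libraries were fitted (adjusted p = 0.118). Leaving out any 1 of the 6 libraries kept between 61 and 63 members of the list lower. Genes of near-identical families, such as Ifit3, Ly6a, the Slfn genes and the Ifi200 cluster, may share reads with their copies, and how such reads were counted is not stated in the sources.

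Several other genes of largest decrease belong to families known to respond to interferon. Slfn1, a Schlafen family member, was at 0.32, 0.163 and 0.455 CPM in TBK1-cKD ∆control against 2.39, 2.09 and 3.73 CPM in TBK1-WT ∆IKKe (log2 change -3.13, adjusted p = 2.02e-06). Ifi206 and Ifi213, of the Ifi200 family of DNA-binding proteins, fell by 2.76 and 2.43 on the log2 scale (adjusted p = 2.37e-07 and 3.98e-07). BC147527 fell by 2.22 (adjusted p = 3.81e-07). Treml2, a TREM-like receptor, fell by 2.51, and Adgre4, an adhesion receptor related to F4/80, fell by 2.38.

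Placed beside the libraries without either loss, most interferon-stimulated genes ran in 1 order: lowest in TBK1-cKD ∆control, intermediate in TBK1-WT ∆control and highest in TBK1-WT ∆IKKe. The group means had that order for 61 of 64 members (95.3%, against 19.2% of all tested genes). For 34 members (53.1%, against 1.67% of all genes) the libraries did not overlap at either step. Taken against TBK1-WT ∆control, TBK1-cKD ∆control had 61 members lower and 1 higher with a median log2 change of -0.63, in a comparison that called 21.4% of genes. TBK1-WT ∆IKKe had 6 members higher and none lower with a median of 0.35, in a comparison that called 11 of 14256 genes (0.0772%), 10 higher (0.0701%) and 1 lower (0.00701%). These comparisons share the TBK1-WT ∆control libraries. Of the genes called higher in TBK1-WT ∆IKKe over TBK1-WT ∆control, C3 (log2 change 0.62, adjusted p = 0.00349) and Gpr162 (0.57, adjusted p = 0.00615) had the lowest adjusted p. Others were Isg15 (0.64, adjusted p = 0.0407), Ifi44 (0.82, adjusted p = 0.0166), Ms4a4c (0.84, adjusted p = 0.0158) and H2-Q6 (0.53, adjusted p = 0.0148). The non-coding RNA Gm36161 was called higher too (0.60, adjusted p = 0.0279), and Ikbke was the gene called lower. That count depended on single libraries. Of the genes tested, 283 were higher and 76 lower without TBK1-WT ∆IKKe replicate 1, and 42 and 44 were higher without TBK1-WT ∆IKKe replicate 2 or TBK1-WT ∆control replicate 3. Between 0 and 5 were higher without TBK1-WT ∆IKKe replicate 3 or TBK1-WT ∆control replicates 1 or 2, and DESeq2 called 65 higher and 15 lower. The fit over 24 libraries called 0, with 422 genes at an unadjusted p under 0.05.

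**Figure D3:**
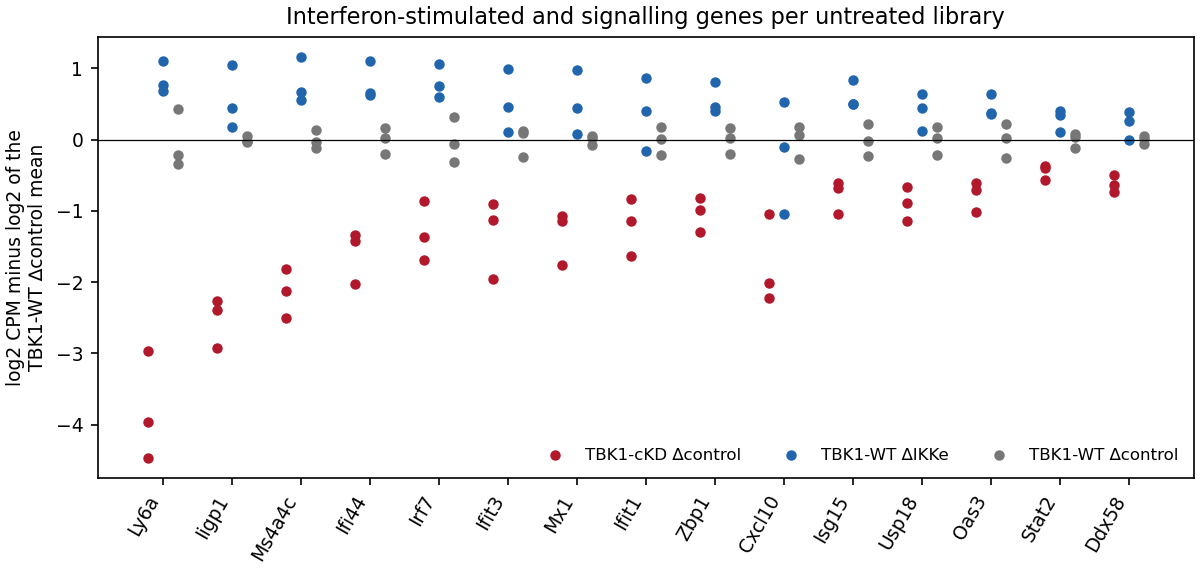
Log2 CPM of 15 interferon-stimulated and signalling genes in each untreated library, relative to the log2 mean of the 3 TBK1-WT ∆control libraries (y axis), for TBK1-cKD ∆control (red), TBK1-WT ∆IKKe (blue) and TBK1-WT ∆control (grey). Red points lie below 0 for every gene shown, from Ly6a to Ddx58, and most blue points lie above it, Cxcl10 being an exception with a log2 change of -0.03 over TBK1-WT ∆control.

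The promoters of the genes that fell held the core of the interferon-stimulated response element more often than promoters at large. The core, GAAA followed by any 2 bases and GAAA, was sought on both strands in the 250 bases before and 50 bases after each RefSeq start on GRCm38.p6, where 9911 tested genes had 12649 promoters. It stood in 57.9% of 57 promoters of 48 genes of the interferon-stimulated list, in 8.33% of promoters of all genes lower in TBK1-cKD ∆control, in 1.93% of those of genes higher and in 3.33% of all 12649. Among genes lower by at least 2-fold and outside the list the share was 10.7% of 131 promoters. As a contrast, the NF-kB core (GGGA, any 4 bases, CC) stood in 28.3% of promoters of lower genes, 27.7% of higher genes and 26.2% of all. A match of these letters is a description and not a measured binding site. The promoters below are of genes whose fall is described above; they read 5′ to 3′ on the strand of the gene and the capitals mark the core or, in Ifit1, its reverse complement. Those of Ifi206 (chr1:173491269-173491568, minus strand) and Ifi213 (chr1:173599223-173599522, minus strand) carry the same core in nearly the same flanking letters, at first base -40 and -73 from the start. In Isg15 (chr4:156200769-156201068, minus strand) 3 overlapping cores begin at -78, -72 and -66, in Ifit1 (chr19:34640639-34640938, plus strand) 2 cores begin at -104 and -85, and in Oas3 (chr5:120777610-120777909, minus strand) 1 begins at -75.
Ifi206: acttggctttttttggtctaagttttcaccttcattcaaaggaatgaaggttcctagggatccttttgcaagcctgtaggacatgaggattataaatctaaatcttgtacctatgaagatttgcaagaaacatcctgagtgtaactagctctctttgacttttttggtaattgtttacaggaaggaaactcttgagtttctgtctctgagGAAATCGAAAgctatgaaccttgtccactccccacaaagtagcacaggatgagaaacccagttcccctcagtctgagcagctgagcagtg
Ifi213: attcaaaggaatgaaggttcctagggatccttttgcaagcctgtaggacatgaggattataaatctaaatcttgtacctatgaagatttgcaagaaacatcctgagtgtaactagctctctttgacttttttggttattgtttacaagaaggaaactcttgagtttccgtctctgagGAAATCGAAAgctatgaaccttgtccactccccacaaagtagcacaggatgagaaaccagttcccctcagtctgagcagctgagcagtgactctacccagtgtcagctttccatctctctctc
Isg15: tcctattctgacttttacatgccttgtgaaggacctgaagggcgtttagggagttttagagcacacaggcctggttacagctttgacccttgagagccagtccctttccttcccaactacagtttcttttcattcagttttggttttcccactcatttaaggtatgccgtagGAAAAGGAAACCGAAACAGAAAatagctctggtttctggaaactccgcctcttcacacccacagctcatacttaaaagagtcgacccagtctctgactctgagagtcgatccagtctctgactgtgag
Ifit1: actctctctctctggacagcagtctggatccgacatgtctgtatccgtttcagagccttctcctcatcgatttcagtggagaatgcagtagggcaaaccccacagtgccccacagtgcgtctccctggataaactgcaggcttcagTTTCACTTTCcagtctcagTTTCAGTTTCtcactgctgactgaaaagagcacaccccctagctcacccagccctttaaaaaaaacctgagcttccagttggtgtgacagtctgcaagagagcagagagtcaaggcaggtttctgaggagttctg
Oas3: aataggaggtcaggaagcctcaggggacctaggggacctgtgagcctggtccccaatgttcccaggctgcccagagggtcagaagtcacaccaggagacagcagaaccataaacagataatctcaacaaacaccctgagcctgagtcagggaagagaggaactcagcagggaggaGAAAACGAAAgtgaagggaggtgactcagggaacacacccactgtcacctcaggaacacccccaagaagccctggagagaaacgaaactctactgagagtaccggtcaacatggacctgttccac

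Most nucleic acid sensors, and some transcription factors of the interferon pathway, were lower in TBK1-cKD ∆control as well. Of 15 tested nucleic acid sensors and partners 12 fell (80%, against 10.6% of all genes) and none rose, with a median log2 change of -0.33. Zbp1 and Ddx58 are on the interferon-stimulated list too, so the counts of these lists are not independent. Zbp1, a sensor of Z-form nucleic acids, was at 15.3, 10.9 and 13.6 CPM in TBK1-cKD ∆control against 35.6, 36.8 and 47.2 CPM in TBK1-WT ∆IKKe (log2 change -1.57 ± 0.12, adjusted p = 1.65e-07). Tlr9, the endosomal receptor for CpG DNA, was at 18.3, 15.5 and 19.5 CPM in TBK1-cKD ∆control against 48.6, 47 and 49.1 CPM in TBK1-WT ∆IKKe (log2 change -1.44 ± 0.07, adjusted p = 4.23e-10), and its TBK1-WT ∆control libraries, at 42.2, 46.1 and 44.5 CPM, lay close to TBK1-WT ∆IKKe. Ddx58, the RNA sensor RIG-I, fell by 0.85, and Tlr7, the receptor for R837, fell by 0.48 (adjusted p = 8.91e-07 and 0.000188). Tmem173, which encodes STING, fell by 0.33 (adjusted p = 1.78e-05), a call lost with all 24 libraries in the fit (adjusted p = 0.125). Of 21 Toll-like receptor and MyD88 pathway genes 8 fell (38.1%, against the same 10.6%) and none rose, at a median of -0.10, and 3 remained lower with all 24 libraries.

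Of 26 interferon regulatory factors, STATs and JAK feedback genes 14 fell (53.8%, against 10.6% of all genes; 8 genes with all 24 libraries), none rose and 12 did not pass. Irf7, the factor that amplifies interferon production, fell most, to 49.8, 39.6 and 70.4 CPM in TBK1-cKD ∆control against 194, 216 and 266 CPM in TBK1-WT ∆IKKe, with TBK1-WT ∆control between them at 103, 123 and 159 CPM (log2 change -2.08 ± 0.17, adjusted p = 3.33e-07). Stat2 and Irf9, which act together on the response element, fell by 0.74 and 0.42 on the log2 scale, each with an adjusted p of 1.07e-05 or less. Irf3, the direct substrate of the kinases, was at 42.2, 42.9 and 46.5 CPM in TBK1-cKD ∆control and 47.7, 45.7 and 44.3 CPM in TBK1-WT ∆IKKe, and its log2 change of -0.07 did not pass (adjusted p = 0.356).

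Most antigen presentation genes were lower in TBK1-cKD ∆control. Of 22 class I presentation genes 18 fell (81.8%, against 10.6% of all genes) and none rose, with a median of -0.36. H2-Q6, a non-classical class I gene, was at 3.23, 3.78 and 2.98 CPM in TBK1-cKD ∆control against 12.8, 14.2 and 14.6 CPM in TBK1-WT ∆IKKe (log2 change -2.06 ± 0.09, adjusted p = 4.23e-10). H2-Q7 fell by 1.78, and reads of the H2-Q genes may be split among near-identical copies. Tap1, which pumps peptides into the endoplasmic reticulum, fell by 0.79, the classical H2-K1 by 0.49 and the shared light chain B2m by 0.38. Of 15 class II and costimulation genes 9 fell (60%, and 3 genes with all 24 libraries) and none rose, with a median of -0.48. Icosl, a ligand that costimulates T cells, was at 14.3, 13.6 and 14.1 CPM in TBK1-cKD ∆control against 25.1, 25.4 and 25.9 CPM in TBK1-WT ∆IKKe (log2 change -0.86, adjusted p = 3.43e-08).

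Many macrophage receptor genes were lower in TBK1-cKD ∆control. Of 36 tested macrophage identity genes 17 were lower (47.2%, against 10.6% of all genes) and 5 higher (13.9%, near the 10.3% of all genes); with all 24 libraries 9 were lower and 1 higher. Ccr2, the chemokine receptor of inflammatory monocytes, was at 38.7, 40.8 and 45.7 CPM in TBK1-cKD ∆control against 126, 128 and 137 CPM in TBK1-WT ∆IKKe (log2 change -1.65 ± 0.06, adjusted p = 1.5e-11). In TBK1-WT ∆control Ccr2 was at 131, 130 and 132 CPM, a log2 change of -0.01 for TBK1-WT ∆IKKe over it (adjusted p = 0.958). Axl, a receptor tyrosine kinase for apoptotic cells, was at 95.8, 104 and 105 CPM in TBK1-cKD ∆control against 272, 272 and 291 CPM in TBK1-WT ∆IKKe (log2 change -1.46 ± 0.05, adjusted p = 8.78e-12). Siglec1, the sialoadhesin receptor, fell by 0.95, Cx3cr1, the fractalkine receptor, by 0.89, Fcgr1, the high-affinity IgG receptor, by 0.72 and Csf1r, the M-CSF receptor, by 0.33. Apoe, the lipid carrier, was lower as well, at 1580, 1670 and 1930 CPM in TBK1-cKD ∆control against 2450, 2750 and 2740 CPM in TBK1-WT ∆IKKe (log2 change -0.62, adjusted p = 4.44e-06). In contrast, the scavenger receptors Msr1 and Cd36 each rose by 0.42 (adjusted p = 1.19e-07 and 7.76e-07) and Itgax, the integrin CD11c, rose by 0.65. Marco, another scavenger receptor, rose by 2.67 (adjusted p = 0.00338) on 33 counts against 5. Its call was lost with all 24 libraries (adjusted p = 0.528). Of 16 tested lipid efflux genes, Apoe and Cd36 among them, 5 rose (31.2%, against 10.3% of all genes) and 2 fell (12.5%, against 10.6%).

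The genes that rose most in TBK1-cKD ∆control have varied known roles. The largest rise among those named by the rule was that of Slc15a2, a peptide transporter, at 3.05, 2.64 and 1.82 CPM in TBK1-cKD ∆control against 0.174, 0.0486 and 0.35 CPM in TBK1-WT ∆IKKe (log2 change 3.61 ± 0.32, adjusted p = 5.88e-07). Adam19, a membrane metalloprotease, was at 20.5, 20.6 and 23.4 CPM in TBK1-cKD ∆control against 7.5, 5.98 and 6.31 CPM in TBK1-WT ∆IKKe (log2 change 1.68 ± 0.08, adjusted p = 6.95e-10). Eps8l1, of a family of actin regulators, rose by 1.89, Rap1gap, which switches off the small GTPase RAP1, by 1.51, and the non-classical class I gene H2-M2 by 1.37. Of 24 matrix and wound repair genes 9 rose (37.5%, against 10.3% of all genes) and 4 fell (16.7%, against 10.6%). Mmp9, gelatinase B, was at 93.4, 113 and 101 CPM in TBK1-cKD ∆control against 34.6, 41.3 and 42.7 CPM in TBK1-WT ∆IKKe (log2 change 1.38 ± 0.08, adjusted p = 4.83e-09). Plau, the protease urokinase, rose by 0.80, Mmp12, macrophage elastase, by 0.68, and F3 (tissue factor) and F10 (coagulation factor X) by 1.20 and 0.81. F13a1, coagulation factor XIII, moved against them and fell by 1.79 (adjusted p = 1.91e-07). Gpnmb, a glycoprotein of lysosomes and melanosomes, was at 12600, 13400 and 13700 CPM in TBK1-cKD ∆control against 7600, 8340 and 8800 CPM in TBK1-WT ∆IKKe (log2 change 0.68 ± 0.05, adjusted p = 3.36e-08).

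Of 22 targets of NRF2, the regulator of the response to oxidants, 11 rose (50%, against 10.3% of all genes) and 1 fell, by small amounts with a median of 0.17 (6 rose with all 24 libraries). Hmox1, heme oxygenase 1, was at 389, 533 and 474 CPM in TBK1-cKD ∆control against 274, 369 and 353 CPM in TBK1-WT ∆IKKe, the lowest library of the first group standing just above the highest of the other (log2 change 0.49, adjusted p = 0.00221). Txnrd1, thioredoxin reductase, rose by 0.46, Prdx1, a peroxidase, by 0.42 and Srxn1, sulfiredoxin, by 0.39, each with an adjusted p of 2.17e-06 or less.

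Some cytokine genes were higher and some lower in TBK1-cKD ∆control at rest. Of 29 tested cytokines and chemokines 8 were higher (27.6%, against 10.3% of all genes) and 4 lower (13.8%, near the 10.6% of all genes), with a median of 0.04 (3 and 3 with all 24 libraries). The called members of largest change were lower, Tnfsf14 by 1.08 and Ccl8 by 1.04 on the log2 scale (adjusted p = 0.000141 and 0.0131). The call of Tnfsf14 was lost with all 24 libraries (adjusted p = 0.0718). That of Ccl8 was lost without TBK1-cKD ∆control replicate 2 (0.0542) or TBK1-WT ∆IKKe replicate 3 (0.079). Il1rn, the interleukin 1 receptor antagonist, was at 118, 152 and 139 CPM in TBK1-cKD ∆control against 56.9, 80.9 and 82.1 CPM in TBK1-WT ∆IKKe (log2 change 0.90, adjusted p = 1.93e-05). Ccl2, the ligand of CCR2, rose by 0.62, and Tnf was at 28.7, 29.1 and 26.5 CPM in TBK1-cKD ∆control against 23.4, 22.4 and 19.6 CPM in TBK1-WT ∆IKKe (log2 change 0.36, adjusted p = 0.000445). Of 31 NF-kB feedback regulators 8 fell (25.8%, against 10.6% of all genes) and 3 rose (9.68%, the share of genes at large being 10.3%); 5 fell without TBK1-WT ∆IKKe replicate 1, and 1 rose and 1 fell with all 24 libraries. Tnfaip3, the deubiquitinase A20, rose by 0.49, while Nfkbiz, the nuclear inhibitor IkBζ, fell by 0.65 (adjusted p = 3.26e-05 and 4.22e-06).

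Partners of the kinases differed by small amounts or did not pass. N4bp1, a suppressor of cytokine production that caspase-8 cleaves, was at 58.8, 56.9 and 58.8 CPM in TBK1-cKD ∆control and 60.4, 58.9 and 65.1 CPM in TBK1-WT ∆IKKe (log2 change -0.08 ± 0.04, adjusted p = 0.203). Casp8, caspase-8, had a log2 change of -0.03 ± 0.03 (adjusted p = 0.546), and Tbkbp1, an adaptor of TBK1, one of -0.10 ± 0.06 (adjusted p = 0.306). The adaptors Tank and Azi2 and the death kinase Ripk1 passed narrowly with log2 changes of 0.16, -0.13 and -0.10 (adjusted p = 0.0311, 0.0176 and 0.0401). Those calls were lost under several settings. Over the 6 libraries alone the adjusted p was 0.061 for Tank, 0.061 for Azi2 and 0.0806 for Ripk1, and with all 24 libraries it was 0.14, 0.287 and 0.723. The call of Tank was also lost without TBK1-cKD ∆control replicate 1 (adjusted p = 0.196) and without TBK1-WT ∆IKKe replicates 1 or 2 (0.0819 and 0.0798), and that of Azi2 without TBK1-WT ∆IKKe replicate 1 (0.0926). That of Ripk1 was lost without TBK1-cKD ∆control replicates 2 or 3 (0.0805 and 0.0892) and without TBK1-WT ∆IKKe replicates 1 or 3 (0.0865 and 0.134).

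Markers of other cells that bone marrow cultures can hold moved with the comparison in some cases. In bulk RNA, fewer cells of a type and less RNA per cell cannot be told apart. Of 11 tested neutrophil markers 7 were lower in TBK1-cKD ∆control (63.6%, against 10.6% of all genes), none was higher, and the summed level of the 19 listed was 38.5, 43.8 and 47.9 CPM in TBK1-cKD ∆control and 60.5, 68.9 and 72.3 CPM in TBK1-WT ∆IKKe, with Ly6g, Stfa2 and Stfa2l1 at 0 in all 6. S100a9, a calcium-binding protein of neutrophils and monocytes, was at 0.222, 0.488 and 0.124 CPM in TBK1-cKD ∆control against 1.79, 1.85 and 2.04 CPM in TBK1-WT ∆IKKe (log2 change -2.79, adjusted p = 1.4e-05). Ngp and Ltf fell by 3.77 and 2.79. These genes made up a small part of the sum and did not always follow it. In untreated TBK1-cKD ∆IKKe the sum was 84.1, 80.3 and 78.1 CPM, with S100a9 at 0.151, 0.125 and 0.197 CPM. Of 17 tested stromal and fibroblast markers 8 were lower (47.1%, against 10.6% of all genes) and none was higher. None of the 19 listed was at 0 in all 6. The summed level of these 19 was 67.6, 65.3 and 58.1 CPM in TBK1-cKD ∆control and 116, 90.8 and 90.9 CPM in TBK1-WT ∆IKKe. Col1a1, a collagen chain, was at 10.8, 9.28 and 8.68 CPM in TBK1-cKD ∆control against 20.3, 16.9 and 16.3 CPM in TBK1-WT ∆IKKe (log2 change -0.89, adjusted p = 0.000314). Of 6 tested lymphocyte markers 3 were lower (50%, against 10.6% of all genes) and none was higher. The lower markers were Igkc by 1.84, Cd79b by 1.54 and Cd4 by 0.80 on the log2 scale. The summed level of the 19 listed was 304, 300 and 307 CPM in TBK1-cKD ∆control and 280, 287 and 319 CPM in TBK1-WT ∆IKKe, with Cd3e, Trac, Gzma, Gzmb and Ncr1 at 0. The called members made up a small part of that sum, which therefore does not describe them. Of 7 tested dendritic cell markers 4 were lower (57.1%, against 10.6% of all genes) and 1, Itgax, was higher (14.3%, against 10.3%). The lower markers were Siglech by 3.44, Kmo by 1.66, Cd24a by 0.71 and Bst2 by 0.63. Siglech had 5 counts in all in TBK1-cKD ∆control and 60 in TBK1-WT ∆IKKe. Its call was lost with all 24 libraries (adjusted p = 0.143). The summed level of the 14 listed was 350, 381 and 361 CPM in TBK1-cKD ∆control and 346, 362 and 374 CPM in TBK1-WT ∆IKKe. Most of that sum was Itgax (212, 245 and 214 against 134, 151 and 144 CPM) and Bst2 (125, 123 and 135 against 191, 190 and 209 CPM). These genes moved in opposite directions, so the even sum does not describe the other members. The part of other cells in the results above was not tested.

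**Figure D4:**
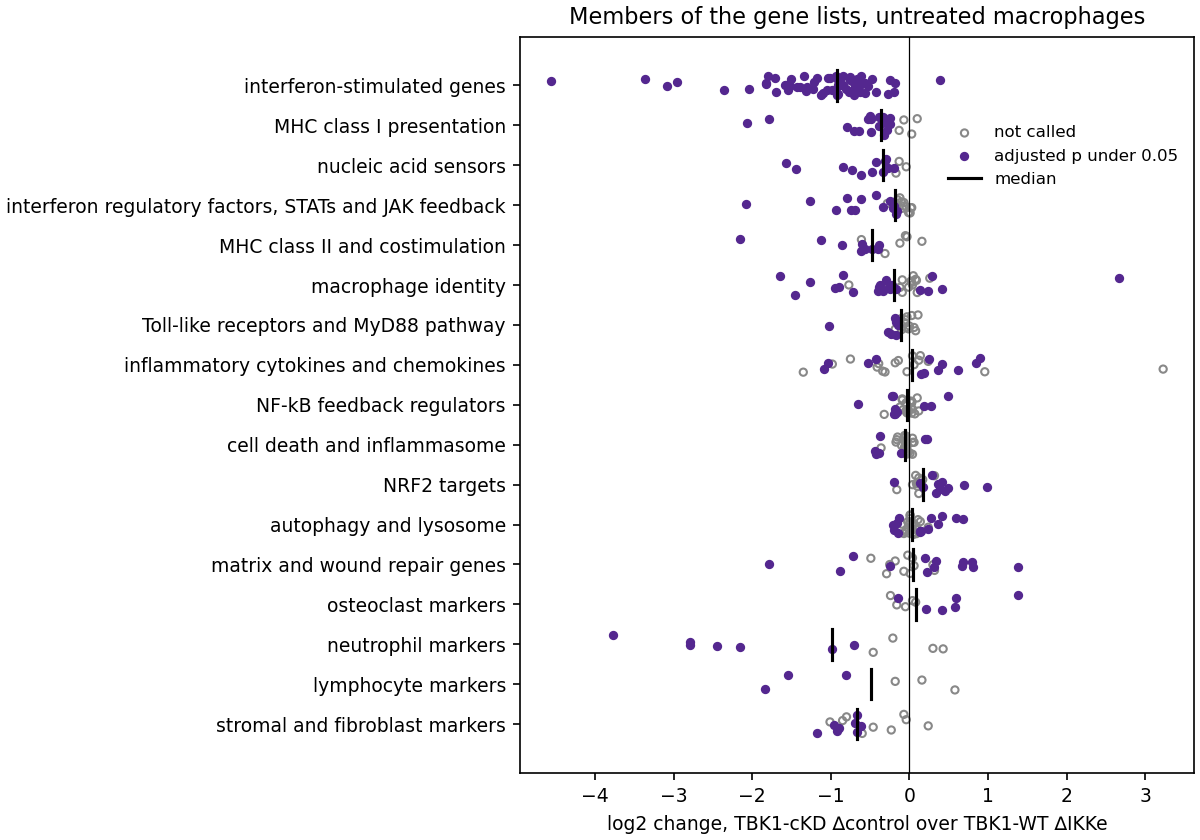
Log2 change of TBK1-cKD ∆control over TBK1-WT ∆IKKe (x axis) for each tested member of 17 gene lists (rows); filled points passed the test, open points did not, and the black bar is the list's median. The interferon-stimulated genes sit furthest left among the pathway lists with a median of -0.92, and the NRF2 targets sit to the right of 0 with a median of 0.17.

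Of 11 tested mitochondrially encoded genes 6 were higher in TBK1-cKD ∆control (54.5%, against 10.3% of all genes), none was lower and 5 did not pass, with a median log2 change of 0.39. Against TBK1-WT ∆control no member passed in either loss, with medians of 0.14 in TBK1-cKD ∆control and -0.18 in TBK1-WT ∆IKKe. The transcript mt-Cytb, for cytochrome b, was at 2260, 1810 and 1840 CPM in TBK1-cKD ∆control against 1630, 1360 and 1300 CPM in TBK1-WT ∆IKKe (log2 change 0.46, adjusted p = 0.00123), and at 1810, 1870 and 1620 CPM in TBK1-WT ∆control. Genes near the targeted loci were called about as often as others: 11 of 42 tested within 5 Mb of Tbk1 (26.2%) and 20 of 76 within 5 Mb of Ikbke (26.3%), against 20.9% overall.

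After 8 h of R837 the interferon-stimulated genes no longer separated the losses in that way. In the R837 libraries 1042 of 14681 genes passed between the same genotypes (7.1%), 550 higher (3.75%) and 492 lower (3.35%) in TBK1-cKD ∆control. These calls come from the fit over all 24 libraries and are not comparable in number with those of the fit over 12 untreated libraries. Untreated, the fit over 24 libraries called 806 genes, 332 higher and 474 lower, with 53 interferon-stimulated genes lower. After R837, 18 of the 64 interferon-stimulated genes were higher and 7 lower, with a median log2 change of 0.28. The difference between the R837 and the untreated log2 change, tested as an interaction over all 24 libraries, passed for 257 of 14681 genes (1.75%), 200 of them positive (1.36%) and 57 negative (0.388%). The negative count fell to 30 or 31 without any 1 of the TBK1-WT ∆IKKe R837 libraries. It was positive and passed for 46 of the 64 interferon-stimulated genes and negative for none. Replicate 2 of R837-treated TBK1-cKD ∆control stood apart, with 19727746 counts and 14226 genes with a count, against 17519 to 19218 genes in the other R837 libraries. An untreated library of like depth, TBK1-WT ∆IKKe replicate 2 with 20314401 counts, had 18427. Without the R837 library that stood apart 46 members passed with a positive difference, and the number was between 40 and 48 when any 1 of the 6 R837 libraries was left out. With the 12 libraries of the 2 genotypes alone it was 53. Neat1, a nuclear-retained RNA, was at 1110, 1100 and 1060 CPM in untreated TBK1-cKD ∆control and 29.9, 25.1 and 32.6 CPM after R837. In TBK1-WT ∆IKKe it was at 756, 893 and 743 CPM untreated and 33.8, 26.4 and 32.8 CPM after R837. The part of a technical level of the R837 libraries in the differences between treatments was not tested.

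Ifit1 is an example. After R837 it was at 235, 255 and 367 CPM in TBK1-cKD ∆control against 135, 132 and 164 CPM in TBK1-WT ∆IKKe, a log2 change of 0.99 (adjusted p = 0.00486), where the untreated change was -1.58. Cxcl10 was at 138, 190 and 219 CPM in TBK1-cKD ∆control against 64.9, 66 and 83.7 CPM in TBK1-WT ∆IKKe after R837 (log2 change 1.35, adjusted p = 0.00231). For both genes every TBK1-cKD ∆control library was above every TBK1-WT ∆IKKe library after R837. Irf7 was at 197, 274 and 315 CPM in TBK1-cKD ∆control and 298, 287 and 323 CPM in TBK1-WT ∆IKKe, with overlapping groups and a log2 change of -0.21 that did not pass (adjusted p = 0.598). Some members stayed low in both settings. Ly6a was at 0.792, 0.999 and 2.61 CPM in TBK1-cKD ∆control against 13, 13.3 and 15.4 CPM in TBK1-WT ∆IKKe after R837 (log2 change -3.24, adjusted p = 2.36e-06), and the difference of 1.31 from its untreated change did not pass (adjusted p = 0.345). Outside the interferon genes, Ccr2 had a log2 change of -1.66 after R837 (adjusted p = 7.4e-11) and Gpnmb one of 0.71 (adjusted p = 0.000332). Their differences from the untreated change were -0.02 ± 0.11 and 0.03 ± 0.16 (adjusted p = 0.987 and 0.983).

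**Figure D5:**
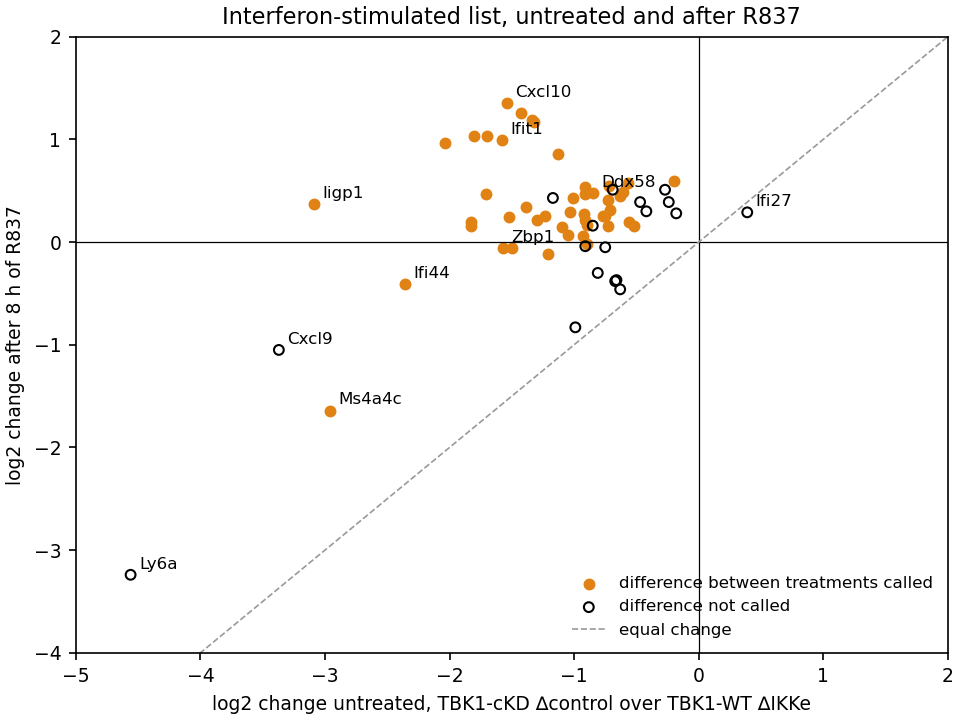
Log2 change of TBK1-cKD ∆control over TBK1-WT ∆IKKe for the 64 genes of the interferon-stimulated list, untreated (x axis) and after 8 h of R837 (y axis); filled points are the 46 genes whose difference between treatments passed the test, and the dashed line marks an equal change. Nearly all points lie above the dashed line, with Ifit1 and Cxcl10 above 0 after R837 and Ly6a far below 0 in both.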

How the data were processed

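RNA-seq was made from total RNA of untreated and R837-treated bone marrow-derived macrophages with an unstranded kit as single-end reads, aligned with GSNAP to GRCm38 per the submitters' processing notes, while the sources name neither counting software nor annotation release. The deposited files give, per library, a raw read count and an RPKM value for each of 52636 genes, from exons per the file names; the authors' RPKM values were not used in any test. Without strand, reads of a gene and of an overlapping antisense gene cannot be told apart. Of the genes, 233 had no symbol (0.019% of counts), and positions came from GENCODE M21. RefSeq promoters were matched by symbol.

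Counts were tested with edgeR 4.0.16 in R 4.3.3: TMM scaling, filterByExpr (minimum count 10, minimum total 15), 1 mean for each of 4 genotypes over the 12 untreated libraries (8 residual degrees of freedom) and quasi-likelihood F tests, adjusted by Benjamini-Hochberg over 14256 genes at a threshold of 0.05. The R837 comparison and the difference between treatments used 24 libraries and 14681 genes, and R837 levels are CPM from that fit. CPM compares libraries for 1 gene and not levels between genes, since it is not divided by length. The untreated libraries hold between 20314401 and 40930284 counts, and their number limits precision. The procedure was tested on simulated data. Motifs and figures used Python 3.11.15.

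Named genes are the 12 of largest change in each direction that passed with groups not overlapping and a mean of at least 1 CPM, the up to 3 called members of largest change in each list, a fixed set around the kinases, and further list members chosen as examples after their values were seen; fragile calls among them were not all described. The compared groups, the lists and the examples were chosen with earlier results of these data known. Some lists share members, so their counts are not independent. No set test was run. Alternatives were another scaling, other count filters, DESeq2 1.42.0, other library sets and leaving out each library.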

Additional observations from a re-analysis of the deposited data

Results flagged for a closer look

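For 33 named genes the log2 change of TBK1-cKD ∆control over TBK1-WT ∆IKKe differed between R837-treated and untreated libraries in the interaction test of edgeR's quasi-likelihood fit over 24 libraries. The values below are the R837 change minus the untreated change on the log2 scale. The part of a technical level of the R837 libraries in them was not tested.

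Among interferon-stimulated genes and their relatives all differences were positive: Iigp1 by 3.45, Ifi206 by 3.22, Cxcl10 by 2.9, Slfn1 by 2.88, Ifit3 by 2.85, Rsad2 by 2.69, Ifit1 by 2.58, Ifi213 by 2.31, BC147527 by 2.15, Mx1 by 2.03, Ifi44 by 1.96, Isg15 by 1.73, Usp18 by 1.52, Oas3 by 1.49 and Ms4a4c by 1.31. The sensors and transcription factors Irf7 (1.87), Zbp1 (1.52), Ddx58 (1.33), Stat2 (1.24) and Irf9 (0.5) differed the same way, as did the presentation genes H2-Q6 (0.97) and Tap1 (0.97). Among macrophage receptors the difference was 0.69 for Fcgr1, 0.56 for Siglec1, 0.54 for Cx3cr1 and 0.39 for Csf1r, and among stromal markers it was 1.67 for Dcn and 1.31 for Vcam1.

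Negative differences were found for Mmp9 (-0.69), Tnfaip3 (-0.55), Myc (-0.53), Hif1a (-0.43) and Msr1 (-0.29). Mmp9 was higher in TBK1-cKD ∆control in both settings, at 1090, 1180 and 1170 CPM against 767, 700 and 683 CPM in TBK1-WT ∆IKKe after R837. Vcam1, an adhesion molecule, was at 22.3, 26.9 and 20.6 CPM in TBK1-cKD ∆control and 20.7, 21.6 and 21.5 CPM in TBK1-WT ∆IKKe after R837, and at 1.55, 1.3 and 0.827 CPM against 3.14, 2.87 and 2.64 CPM untreated.

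Leaving out 1 R837 library ended the call of the difference for BC147527 (1.74 without TBK1-cKD ∆control replicate 3, adjusted p = 0.0534), Csf1r (0.36 without TBK1-WT ∆IKKe replicate 2, adjusted p = 0.0661) and H2-Q6 (0.89 without TBK1-WT ∆IKKe replicate 3, adjusted p = 0.0509). Several such libraries ended it for Dcn (adjusted p up to 0.125 without TBK1-WT ∆IKKe replicate 2), Ms4a4c (up to 0.0751 without the same library), Siglec1 (up to 0.141 without it), Msr1 (up to 0.121 without TBK1-WT ∆IKKe replicate 1) and Myc (up to 0.132 without TBK1-WT ∆IKKe replicate 3).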

How the results depend on the processing

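No named gene changed direction in any alternative run, and the number of interferon-stimulated genes lower was between 61 and 63 in every one except the fit over 24 libraries. Between TBK1-cKD ∆control and TBK1-WT ∆IKKe, untreated, genes higher and lower numbered 1423 and 1547 with RLE scaling, 1546 and 1597 without a count filter, 1492 and 1485 at a minimum of 1 CPM in 3 libraries, 1235 and 1323 with DESeq2, 1080 and 1166 over the 6 libraries alone and 1231 and 1436 over 9 untreated libraries without the group labelled TBK1-cKD ∆IKKe, an alternative chosen after seeing the data. With all 24 libraries they numbered 332 and 474 and the interferon-stimulated genes lower 53, in a fit with more estimated variation. Leaving out 1 library gave 1045 to 1320 higher, 1209 to 1443 lower and 61 to 63 interferon-stimulated genes lower. The fit over 24 libraries ended the calls of 32 named genes. Cell cycle genes lower ranged from 3 to 18 and glycolysis genes higher from 0 to 7 when 1 library was left out, and the cause was not tested.

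For the difference between treatments, DESeq2 called 334 higher and 100 lower, the 12 libraries of the 2 genotypes alone called 280 higher and 103 lower, and leaving out 1 R837 library gave 141 to 241 higher, 30 to 55 lower and 40 to 48 interferon-stimulated genes higher. Against TBK1-WT ∆control, in alternatives added after seeing the data, TBK1-cKD ∆control had 353 genes higher and 389 lower with all 24 libraries, and 937 to 1539 higher and 1078 to 1687 lower with 1 library left out. TBK1-WT ∆IKKe against TBK1-WT ∆control had 65 higher and 15 lower with DESeq2, 0 and 0 with all 24 libraries (422 at an unadjusted p under 0.05), and 0 to 283 higher and 1 to 76 lower with 1 library left out. No paired analysis was run, because the labels and files carry no replicate numbers. The records repeat the groups in the same order, which does not itself show which mice were handled together, and a block by that order was not fitted. Genes under about 1 CPM rest on few counts at these depths.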
